A study of Homo sapiens with 4 samples.

Results

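The genes described here are the heat shock proteins and the J proteins (DNAJ co-chaperones), taken from the gene table by symbol alone. A row was a member when its symbol was DNAJA, DNAJB or DNAJC followed by a number, or 1 of the HSPA, HSPB, HSP90, HSPD1, HSPE1 and HSPH1 symbols. This gave 70 of 35211 rows: 15 HSPA genes, 3 HSP90 genes, 7 HSPB genes, HSPD1, HSPE1 and HSPH1, 4 DNAJA genes, 12 DNAJB genes and 26 DNAJC genes. The choice by symbol also took HSPA7, a pseudogene of the HSP70 family, and HSPB11, whose product works in intraflagellar transport.

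The RNA came from 2 established human lines of prostate cancer, DU145 and PC3. Each line was transfected with either a negative control plasmid or one that overexpresses the circular RNA circ0003553; the sample titles also carry the gene name RCAN3. Each of the 4 groups (DU145 control, DU145 circ0003553, PC3 control, PC3 circ0003553) held 1 library of ribosomal RNA-depleted total RNA, and all 4 had been transfected. Nothing in the labels states the time from transfection to harvest or that the libraries came from separate cultures. Differences between the libraries may thus be technical. With 1 library per group there is no replicate spread. The p-values rest on how far the plasmid difference disagrees between the lines and on a spread borrowed from all genes.

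In bulk RNA, fewer cells of a type and less RNA per cell cannot be told apart. Library totals ranged from 33438509 to 39488890 counts. RCAN3 had 639 counts in DU145 control, 816 in DU145 circ0003553, 1212 in PC3 control and 3798 in PC3 circ0003553, and gene counts do not separate its circular from its linear RNA. The epithelial genes EPCAM, KRT8 and KRT18 were present in every library (EPCAM at 29.6 to 46.5 RPKM, counts scaled to exon length and library total), while CDH1 had 2478 to 4821 counts in DU145 and 84 to 108 in PC3. The leukocyte gene PTPRC reached at most 2 counts. CTNNA1, known to be lost in PC3, was at 0.471 to 0.608 RPKM there, against 44.9 to 47.0 in DU145.

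Molecular chaperones bind unfolded or partly folded proteins and keep them from aggregating. HSP70 proteins (HSPA genes) bind and release client segments in an ATP cycle; J proteins bring them clients and stimulate the ATPase through the J domain, and HSP110 proteins such as HSPH1 exchange the nucleotide. HSP90 matures kinases and steroid receptors, small heat shock proteins (HSPB genes) hold unfolding proteins without ATP, and HSPD1 with its lid HSPE1 forms the folding chamber of mitochondria. In a heat shock response the transcription factor HSF1 raises many of these genes through heat shock elements, repeats of the unit GAA and its inverse; stress in the endoplasmic reticulum (ER) raises a different set, including HSPA5 and HSP90B1, through the ER stress element.

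Cytosolic HSP90 RNA was the most abundant of the group. HSP90AB1, the form usually described as constitutive, had 2009 RPKM in DU145 control, 2344 in DU145 circ0003553, 1770 in PC3 control and 1765 in PC3 circ0003553. HSP90AA1, the form usually described as inducible, had 1228, 1051, 1752 and 1619 RPKM in the same order. HSP90AB1 thus exceeded HSP90AA1 by 1.64 and 2.23 times in the DU145 libraries, while in the PC3 libraries the ratio was 1.01 and 1.09. Together these genes took 1.24% to 1.45% of all counts, and the 70 chaperone genes 2.23% to 2.49%.

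Below HSP90, the genes ranked by their mean level over the 4 libraries were HSP90B1 (GRP94, the HSP90 of the ER, 389 RPKM), HSPA8 (HSC70, the constitutive cytosolic HSP70, 243) and DNAJA1 (a J protein that works with HSPA8, 204). In both PC3 libraries DNAJA1 (225 and 224 RPKM) stood above HSPA8 (194 and 185). HSPA9 (mitochondrial HSP70, 156) and DNAJC8 (a spliceosome-associated J protein, 153) followed, at levels whose ranges over the libraries overlapped. DNAJC8 reached 206 RPKM in PC3 circ0003553, above HSPA8 in that library. HSPA5 (BiP, the HSP70 of the ER) averaged 120 RPKM, HSPA1B 102 and HSPD1 97.0; their ranges overlapped too. In all, 9 members averaged at least 100 RPKM, 20 lay between 10 and 100, 24 between 1 and 10, and 17 were under 1.

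**Figure D1:**
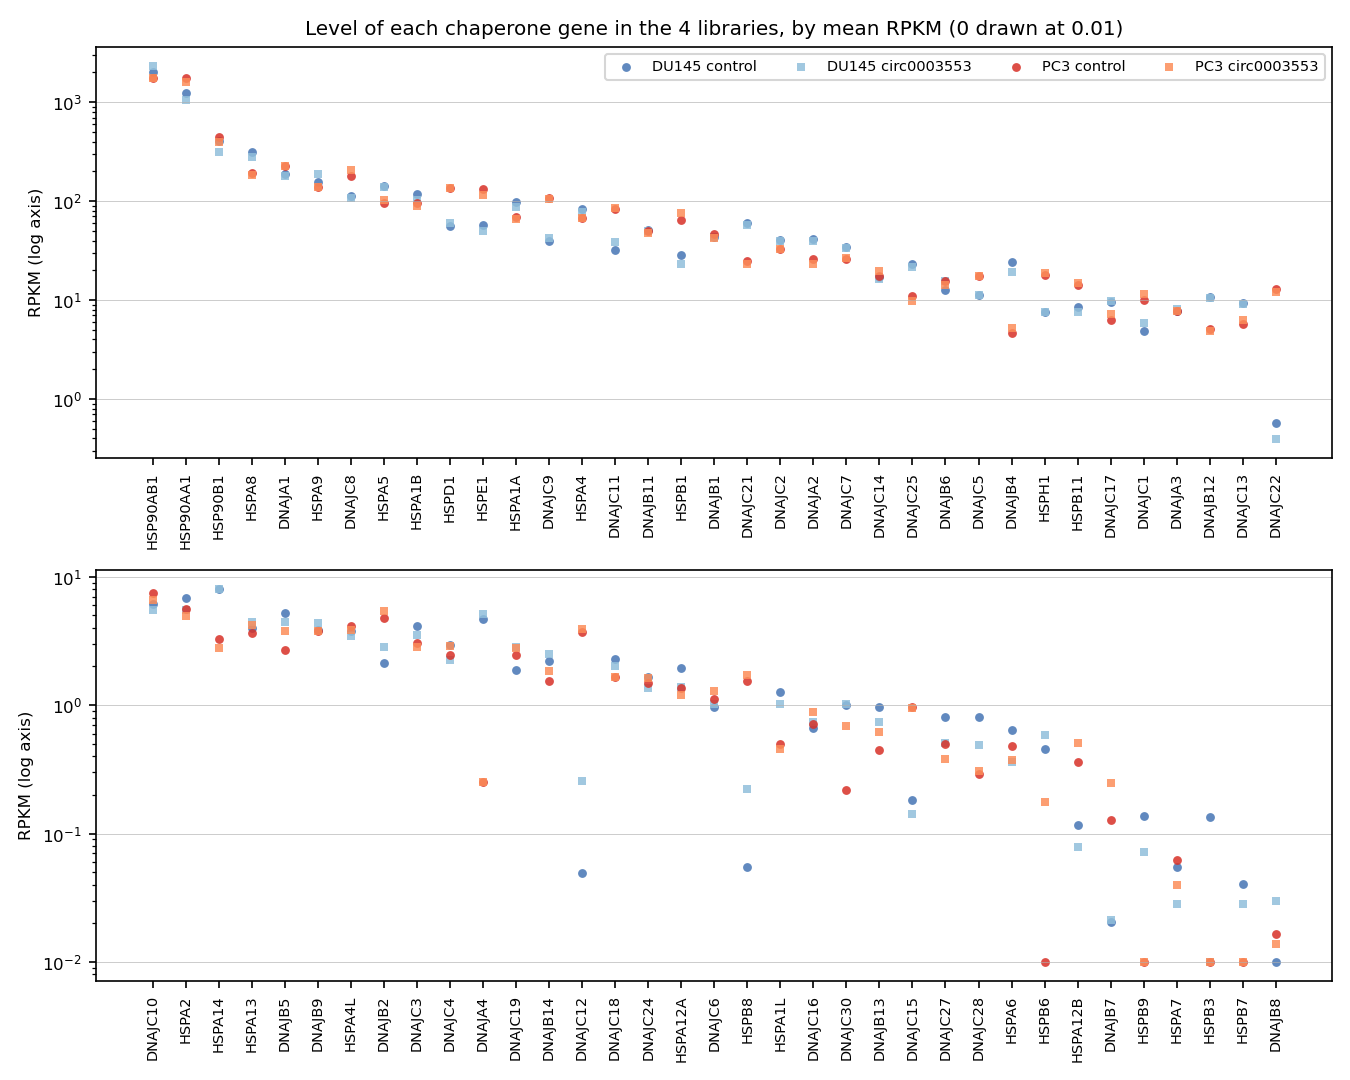
RPKM (log axis) of all 70 genes in each of the 4 libraries, in order of mean RPKM; circles are control and squares circ0003553 libraries, blues are DU145, red and orange are PC3, and a value of 0 is drawn near the foot of the lower panel. HSP90AB1 and HSP90AA1 lie highest, at 1051 to 2344 RPKM, and DNAJC22, DNAJC12, HSPB8 and DNAJA4 show the widest gaps between the lines among genes with more than a few counts.

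HSPA1A and HSPA1B, the stress-inducible HSP70 pair, were already high in the control libraries. HSPA1A had 97.9 and 86.5 RPKM in DU145 control and circ0003553 and 68.9 and 65.5 in PC3, and HSPA1B 117 and 104 in DU145 and 96.8 and 90.4 in PC3. Their coding sequences are nearly identical, so reads may have been split between the copies and each value alone is uncertain. HSPA6, an HSP70 gene known for strict dependence on stress, stood at 0.643, 0.359, 0.479 and 0.374 RPKM (58, 31, 38 and 35 counts). DNAJB1, the main J partner of inducible HSP70, had 43.2 and 43.8 RPKM in DU145 and 46.1 and 42.6 in PC3, a narrow range over all 4 libraries.

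The windows from 250 bases before to 50 bases after the annotated start (RefSeq, GRCh38.p14) were searched for the heat shock element because it is the textbook element of this family. Of the 70 genes, 63 had at least 1 window (82 windows); DNAJC1, DNAJC22, DNAJC24, HSPA7, HSPA12B, HSPA14 and HSPB11 had none. A perfect element of 3 units (GAA, 2 bases of any kind, TTC, 2 bases of any kind, GAA, on either strand) lay in windows of 7 genes, DNAJA1, DNAJB6, HSP90AA1, HSP90AB1, HSPA6, HSPA8 and HSPD1, which is 8.54% of the member windows against 0.49% of all 35116 windows. The ER stress element (CCAAT, 9 bases of any kind, CCACG, on either strand) lay in windows of HSPA5 and HSP90B1, 2.44% of the member windows against 0.0769% of all. The 2 motifs share no position in these windows. Matches before the start are printed below with the matched bases in capitals, 5′ to 3′ on the strand of the gene, to show how the element is arranged in genes at both ends of the range of levels. The match of DNAJA1 lies after the start and is not printed. Stretches that the table counts as exon in some transcript are kept short.

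HSPA6 (chr1:161524431-161524513): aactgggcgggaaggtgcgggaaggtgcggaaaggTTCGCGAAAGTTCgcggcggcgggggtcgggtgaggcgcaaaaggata
HSP90AB1 (chr6:44247743-44247865): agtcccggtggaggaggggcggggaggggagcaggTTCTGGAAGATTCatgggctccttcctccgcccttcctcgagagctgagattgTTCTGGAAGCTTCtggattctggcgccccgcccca
HSP90AA1 (chr14:102087112-102087140): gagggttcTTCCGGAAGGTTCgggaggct
HSPA8, far match (chr11:123062346-123062374): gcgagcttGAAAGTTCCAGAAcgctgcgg
HSPA8, near match (chr11:123062171-123062199): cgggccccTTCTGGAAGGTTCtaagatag
HSPD1 (chr2:197500062-197500090): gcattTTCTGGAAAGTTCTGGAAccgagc
DNAJB6 (chr7:157336838-157336920): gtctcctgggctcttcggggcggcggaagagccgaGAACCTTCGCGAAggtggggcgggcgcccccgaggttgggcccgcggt
HSPA5, ER stress element (chr9:125241356-125241444): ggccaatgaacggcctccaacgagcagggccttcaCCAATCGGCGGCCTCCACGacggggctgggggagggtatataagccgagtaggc
HSP90B1, ER stress element, far match (chr12:103930211-103930239): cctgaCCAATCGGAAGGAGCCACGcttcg
HSP90B1, ER stress element, near match (chr12:103930316-103930344): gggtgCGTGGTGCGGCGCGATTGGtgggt

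HSP90AB1 and HSPA8 each carried 2 separate matches, and in HSPD1 a pair of overlapping matches forms a run of 4 units. The first matched base lay 74 bases before the start in HSPA6, 165 in HSP90AB1, 88 in HSP90AA1, 131 in DNAJB6 and 245 in HSPD1. The 7 genes with the element ranged from 0.464 (HSPA6) to 1972 RPKM (HSP90AB1), with a median of 204, against a median of 7.01 for the 52 tested genes that had a window without it. The genes counted as without it include HSPA1A, HSPA1B, HSPH1, HSPB1 and DNAJB1. Only perfect elements inside these windows were searched for, so imperfect or more distant elements would be missed. HSPE1 also counts as without it, although the HSPD1 match lies in an exon of both genes. A match is a run of letters, not a measured binding site.

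The lines were compared with edgeR's quasi-likelihood test on the counts, with the plasmid as a second term (n = 2 libraries per line, which differ in plasmid, with 1 residual degree of freedom and a prior worth 13.4 more). Of the 65 members with enough counts to be tested, 21 were higher and 20 lower in PC3 at an adjusted p of 0.05. That is 63.1% of them, beside 66.0% of all 21731 genes tested (33.1% higher and 32.9% lower), so the share is near that of genes in general. At least 2-fold differences were called for 24 members (36.9%, against 37.7% of all genes) and at least 4-fold for 9 (13.8%, against 18.5%). The median size of the line difference was 0.52 on the log2 scale for the members and 0.75 for all genes tested.

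Of 14 tested HSP70 (HSPA) genes, 5 were lower in PC3, 1 was higher and 8 were not called (42.9% called, beside 66.0% of all genes). The abundant HSPA8 and HSPA5 were among the lower. HSPA8 stood at 311 and 281 RPKM in the DU145 libraries and 194 and 185 in PC3, with no overlap, and fell by 0.57 ± 0.10 on the log2 scale (SE, adjusted p = 0.000201, edgeR). HSPA5 fell by 0.43 ± 0.10 (143 and 138 RPKM in DU145, 95.9 and 102 in PC3) and HSPA1A by 0.38 ± 0.09 (adjusted p = 0.0012 and 0.00242, edgeR). For HSPA1B the difference was -0.17 ± 0.09 (adjusted p = 0.139), with a 95% interval of -0.37 to 0.04, and it was called lower when libraries were scaled by total counts. HSPA9 had -0.23 ± 0.11 (adjusted p = 0.083), and it too was called lower with total counts.

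HSPA14, an HSP70 that sits at the ribosome with the J protein DNAJC2, had 1310 and 1259 counts in the DU145 libraries against 468 and 471 in PC3, 2.54-fold lower in PC3 (adjusted p = 2.17e-07, edgeR). DNAJC2 itself was at -0.21 ± 0.09 (adjusted p = 0.062), and was called with total counts and with halved counts. HSPA1L, which lies beside HSPA1A and HSPA1B on chromosome 6 (chr6:31809619-31815065, minus strand) and is known from testis, had 123 and 94 counts in the DU145 libraries against 42 and 46 in PC3. Its call (fell by 1.18 ± 0.28, adjusted p = 0.00154) was lost with DESeq2 (adjusted p = 0.081). In the opposite direction, HSPA12B, a distant HSP70 relative known from endothelium, had 14 and 9 counts in the DU145 libraries against 38 and 63 in PC3 (adjusted p = 0.000446). The endothelial gene PECAM1 moved the same way, at 10 and 14 counts in the DU145 libraries against 585 and 595 in PC3. The endothelial genes VWF and CDH5 went the other way, on at most 14 counts in any library, and were not tested. From DU145 to PC3, VWF fell from 2 and 14 to 0 and 0, and CDH5 from 6 and 4 to 3 and 0. The part of the PECAM1 difference in the HSPA12B result was not tested.

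HSPH1, the inducible HSP110, had 2405 and 2322 counts in the DU145 libraries against 5055 and 6192 in PC3, and was 2.55-fold higher in PC3 (log2 1.35 ± 0.10, adjusted p = 1.34e-08, edgeR). Its relatives HSPA4 (-0.17 ± 0.10, adjusted p = 0.143) and HSPA4L (0.22 ± 0.10, adjusted p = 0.0779) were not called. HSPA4 was called lower under total counts.

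Among HSP90 genes, HSP90AA1 was 1.56-fold higher in PC3 (0.64 ± 0.13, adjusted p = 0.000492) and HSP90B1 1.23-fold higher (0.30 ± 0.11, adjusted p = 0.0277, edgeR). The lines overlapped for HSP90B1, at 403 and 317 RPKM in the DU145 libraries and 441 and 396 in PC3. HSP90B1 lost its call without the plasmid term (adjusted p = 0.0929, edgeR). HSP90AB1 differed by -0.22 ± 0.13 (adjusted p = 0.143), with an interval of -0.50 to 0.05, and was called lower with total counts (adjusted p = 0.0121). The difference between the responses of HSP90AA1 and HSP90AB1 was not itself tested.

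The mitochondrial chaperonin pair was higher in PC3. HSPD1 (HSP60) had 55.6 and 59.8 RPKM in DU145 and 136 and 137 in PC3, and HSPE1 (HSP10) 57.9 and 50.1 against 132 and 116. Each gene was thus well above the DU145 range in both PC3 libraries, 2.49-fold for HSPD1 and 2.41-fold for HSPE1 (adjusted p = 2.51e-08 and 2.37e-08, edgeR). They lie head to head on chromosome 2 and share 281 exon bases in the table, 14.2% of the exon length of HSPE1, so some reads may count for either gene. HSPE1 also shares 192 bases with the readthrough gene HSPE1-MOB4. That gene had 4394 and 3584 counts in the DU145 libraries and 8828 and 9107 in PC3. HSPE1 itself had nearly the same, 4353 and 3609 in DU145 and 8700 and 9024 in PC3. The part of this overlap in the counts was not tested. Per exon length, HSPD1 and HSPE1 stayed near each other, at HSPD1 to HSPE1 ratios of 0.961, 1.19, 1.03 and 1.19.

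**Figure D2:**
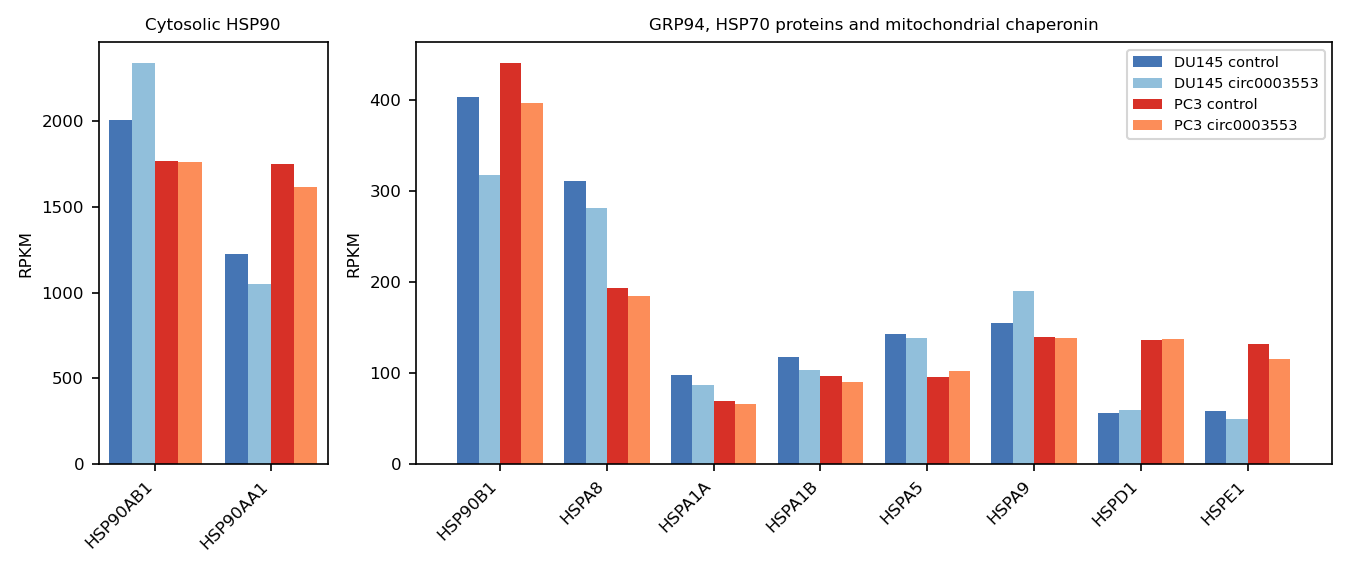
RPKM (linear axes from 0) of 10 abundant chaperone genes, 1 bar per library (blues DU145, red and orange PC3). HSP90AA1, HSPD1 and HSPE1 are higher in both PC3 libraries than in both DU145 libraries, and HSPA8, HSPA1A and HSPA5 are lower. HSP90AB1, HSPA1B and HSPA9 are also lower in both PC3 libraries, by less, and were not called between the lines. HSP90B1 overlaps between the lines, although it was called higher in PC3.

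All 4 tested small heat shock protein (HSPB) genes were called between the lines (100%, beside 66.0% of all genes). In PC3, 3 were higher and 1, HSPB6 on few counts, was lower. HSPB1 (HSP27), the most abundant of them, had 1760 and 1392 counts in the DU145 libraries against 3564 and 4850 in PC3, 2.86-fold higher (1.52 ± 0.11, adjusted p = 2.2e-08, edgeR). HSPB8, which acts with the co-chaperone BAG3 in disposal of damaged proteins, had 6 and 23 counts in the DU145 libraries against 148 and 192 in PC3, 12.4-fold higher by the fit (adjusted p = 5.05e-07). The DU145 libraries differ from each other there, so the fold is loosely set. HSPB6 went the other way, with 30 and 37 counts in the DU145 libraries against 0 and 12 in PC3 (adjusted p = 0.00133, a call lost with DESeq2), and shares 38.2% of its exon bases with AC002398.12, which had 26 and 26 counts in the DU145 libraries against 0 and 8 in PC3; the part of that overlap was not tested. HSPB3 (4 and 0 counts in DU145), HSPB7 (6 and 4) and HSPB9 (10 and 5) had 0 counts in both PC3 libraries and were not tested. HSPB11 was 1.90-fold higher in PC3 (adjusted p = 2.66e-06).

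The widest line differences were among J proteins. DNAJC22 (chr12:49346917-49357546) had 110 and 72 counts in the DU145 libraries against 2183 and 2366 in PC3, 27.2-fold higher (4.76 ± 0.15, adjusted p = 1.08e-12, edgeR). DNAJC12 (chr10:67796665-67838166), which binds the aromatic amino acid hydroxylases, had 4 and 20 counts in the DU145 libraries against 264 and 325 in PC3, 26.0-fold by the fit (4.70 ± 0.35, adjusted p = 1.78e-08). With so few DU145 counts its fold depends on a handful of reads, but the groups lay far apart.

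DNAJC15, a J protein of the mitochondrial inner membrane, had 56 and 42 counts in the DU145 libraries against 260 and 303 in PC3, 6.18-fold higher (adjusted p = 8.07e-08). DNAJC9, which is also a histone chaperone, rose 2.76-fold from 39.4 and 42.4 RPKM in DU145 to 108 and 106 in PC3, and DNAJC11, associated with the cristae-organising complex of mitochondria, 2.50-fold (adjusted p = 8.14e-09 and 4.03e-08, edgeR). DNAJC9 shares 949 of its 3955 exon bases with FAM149B1 (2872 and 2862 counts in DU145, 6795 and 7537 in PC3) and DNAJC11 27.9% with THAP3 (570 and 638, then 1073 and 1273). The part of these neighbours in the counts was not tested. DNAJC22, DNAJC12, DNAJC15, HSPB1, HSPB8 and HSPH1 share no exon base with any gene of the table.

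DNAJA4 (chr15:78264086-78282196), a class A J protein, was the member most strongly lower in PC3. It had 1164 and 1230 counts in the DU145 libraries against 56 and 65 in PC3, 18.5-fold lower (fell by 4.21 ± 0.16, adjusted p = 1.36e-11, edgeR). Its paralog DNAJA1 was 1.28-fold higher in PC3, DNAJA2 1.58-fold lower and the mitochondrial DNAJA3 not called (0.04 ± 0.10, adjusted p = 0.768).

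DNAJB4, a class B J protein related to DNAJB1, had 3458 and 2680 counts in the DU145 libraries against 587 and 777 in PC3, 4.18-fold lower (adjusted p = 1.26e-09), while DNAJB1 differed by 0.10 ± 0.10 (adjusted p = 0.395). DNAJB12, an ER membrane J protein of protein degradation, was 2.04-fold lower, DNAJC25 2.07-fold lower, and DNAJC21, which acts in ribosome assembly, 2.34-fold lower (adjusted p = 6.6e-07, 6.42e-07 and 4.49e-08, edgeR). DNAJC25 shares 13.8% of its exon bases with the readthrough gene DNAJC25-GNG10. DNAJB2 (2.19-fold) and the ER membrane protein DNAJC1 (2.11-fold) were higher in PC3. DNAJB7, at 2 and 2 counts in the DU145 libraries against 11 and 25 in PC3, was called higher. DNAJC28, at 76 and 44 against 24 and 30, was called lower. Both calls rest on few reads and were lost with DESeq2. DNAJB7 shares 24.2% of its exon bases with XPNPEP3 on the other strand (120 and 100 counts in DU145, 228 and 343 in PC3). The part of that overlap was not tested. DNAJC30, a mitochondrial J protein, was called 2.12-fold lower on 94 and 92 counts in the DU145 libraries against 18 and 68 in PC3, a call lost with DESeq2 (adjusted p = 0.162), without a filter on low counts (0.0652) and without the plasmid term (0.052).

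**Figure D3:**
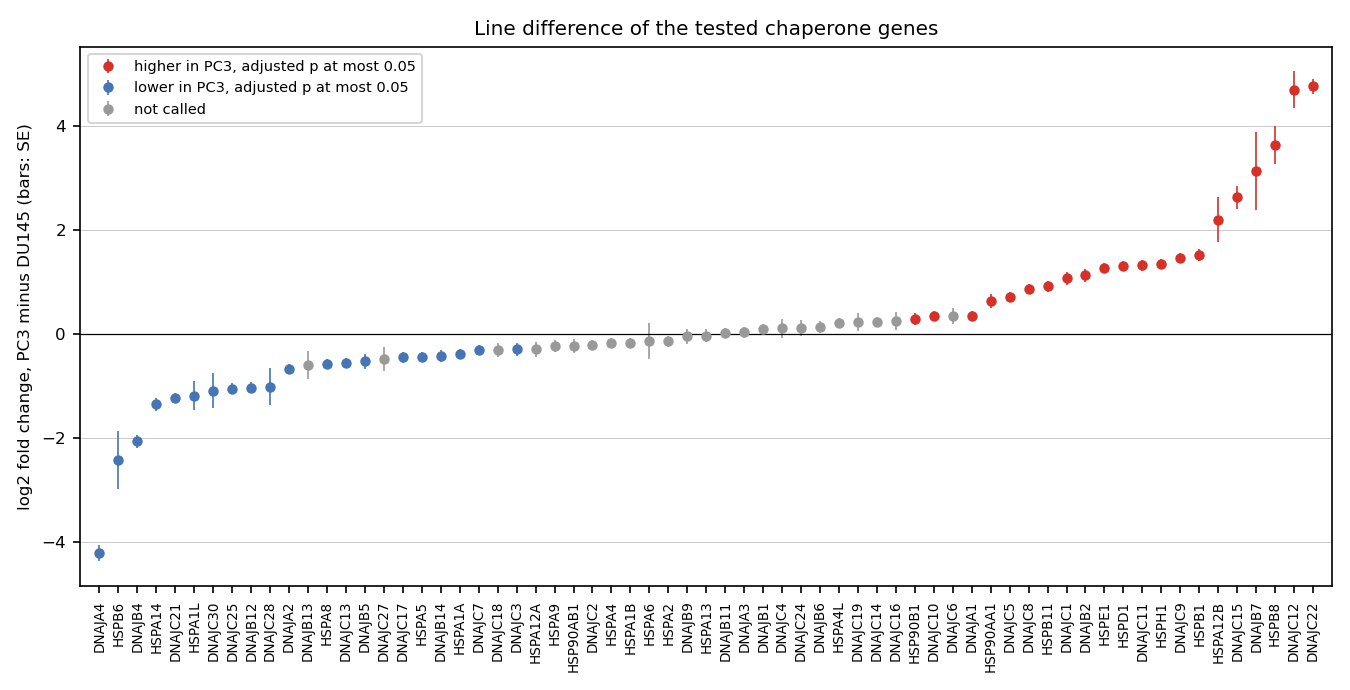
Fitted log2 fold change of PC3 minus DU145 for the 65 tested genes, in order, with bars of 1 SE; red is called higher in PC3, blue called lower and grey not called. DNAJC22 and DNAJC12 stand at the top above 4 and DNAJA4 at the bottom below -4, with most other genes between -1.5 and 1.5.

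By compartment the line differences were mixed. The lists used here are not complete. Of 8 listed ER genes, 3 were higher in PC3 (HSP90B1, DNAJC1 and DNAJC10), 2 lower (HSPA5 and DNAJC3) and 3 not called (HSPA13, DNAJB9 and DNAJB11). The list had 62.5% of its genes called, beside 66.0% of all genes, and a median of -0.00 on the log2 scale. DNAJB12, which also sits in the ER membrane and was lower in PC3, is not on that list. DNAJC3, an ER J protein, held its call narrowly (fell by 0.29 ± 0.12, adjusted p = 0.0453) and lost it with DESeq2 (adjusted p = 0.244), limma-voom (0.057), legacy dispersions (0.0523), no filter (0.0858) and no plasmid term (0.0696). Of 5 listed mitochondrial genes, 2 were higher (DNAJC11 and DNAJC15) and 3 not called (HSPA9, DNAJA3 and DNAJC19). For this list 40% were called, beside 66.0% of all genes. Outside that list, the mitochondrial HSPD1 and HSPE1 (1.31 and 1.27) were higher and DNAJC30 (-1.08) lower; HSPD1 and HSPE1 are counted in the next list. Of 21 genes of the heat shock set (the HSP70, HSP110, HSP90, HSPD1, HSPE1, HSPB1, HSPB8 and J protein genes most often tied to HSF1), 8 were higher, 6 lower and 7 not called (66.7% called, beside 66.0% of all genes), with a median of 0.10 beside 0.00 for all genes tested.

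The plasmids were compared across both lines in the same fit, with the cell line as the second term (n = 2 libraries per plasmid). None of the 65 chaperone genes was called by edgeR's quasi-likelihood test at an adjusted p of 0.05, beside 0.465% of all genes tested. At that share, 0 of 65 is near what genes in general would give. The lowest adjusted p was 0.486. At an unadjusted p under 0.05 there were 6 members, 9.23% of those tested against 8.88% of all genes. DESeq2, which gave 58 of them an adjusted p, and limma-voom called 0 members too, with 2 and 4 under an unadjusted p of 0.05. The median fitted change was -0.02 on the log2 scale for the members and 0.00 for all genes.

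The fitted changes ranged from -0.60 (HSPA6) to 0.81 (DNAJB7), both genes of low counts. For 51 of the 65 genes the 95% interval of the change lay within 1.5-fold in either direction, and for 57 within 2-fold. The heat shock genes proper were among them: HSPA1A had -0.12 (interval -0.32 to 0.09), HSPA8 -0.10 (-0.32 to 0.12), HSPH1 0.04 (-0.17 to 0.25), DNAJB1 -0.04 (-0.25 to 0.17) and HSP90AA1 -0.16 (-0.44 to 0.11). The ER chaperone HSPA5 had 0.03 (-0.18 to 0.24) and its J partners DNAJB9 and DNAJB11 0.10 (-0.21 to 0.41) and -0.04 (-0.24 to 0.17). HSPA6 itself had -0.60 (-1.34 to 0.14), so a 2-fold fall and no change both lie inside it.

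The 6 highest fitted changes at a mean log2 CPM (counts scaled to the library total) of at least 1 were those of DNAJC19 (0.40 ± 0.16), HSPB8 (0.34 ± 0.31), DNAJB2 (0.30 ± 0.12), DNAJC16 (0.25 ± 0.17), DNAJC1 (0.23 ± 0.12) and DNAJB14 (0.22 ± 0.11). With DESeq2 the value for HSPB8 was 0.94, and DNAJC12, at 0.22 with edgeR, had 0.99 (adjusted p = 1 for each), on 6 and 23 and on 4 and 20 counts in DU145. DNAJC19, part of the mitochondrial import motor, had 255 and 371 counts in DU145 control and circ0003553 and 293 and 393 in PC3 (adjusted p = 0.486, edgeR). The 6 lowest were DNAJC27 (-0.53 ± 0.23), HSPA12A (-0.34 ± 0.15), DNAJC22 (-0.24 ± 0.13), HSPA2 (-0.24 ± 0.11), HSP90B1 (-0.24 ± 0.11) and HSPA1L (-0.23 ± 0.27). HSP90B1 had 71854 and 54249 counts in the DU145 libraries against 69123 and 73327 in PC3, where the circ0003553 library was the deeper (adjusted p = 0.543).

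Within a line there was 1 library per plasmid and no test, so ratios of TMM-scaled counts are given with 95% exact intervals that cover counting error only. Low counts in the files were mostly even (70.3% to 75.3% of values from 1 to 20), as when read pairs are counted as 2 reads, so the intervals were computed from halved counts. None of 61 members with at least 50 counts in DU145 was 2-fold apart, beside 2.02% of all such genes, and 1 of 63 in PC3, beside 1.16%. At 1.5-fold, 4 members were apart in DU145, beside 9.20% of all such genes. DNAJC12 and HSPB8, at 4 and 20 and at 6 and 23 counts in DU145, fell under that minimum there. The gene 2-fold apart in PC3 was DNAJC30, with 18 and 68 counts in PC3, a ratio of 3.15 (interval 1.48 to 7.46), against 94 and 92 counts and 1.05 in DU145. It shares 14.4% of its exon bases with WBSCR22 on the other strand, which had 10863 and 13088 counts in PC3; without a strand setting, reads of the 2 genes cannot be told apart there.

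Small shifts in the same direction were more often downward. Of 60 members with at least 50 counts in each line, 8 were lower with circ0003553 in both lines beyond the counting intervals (13.3%, against 3.98% of all such genes) and 1, DNAJB14, was higher (1.67%, against 4.73%). The 8 were HSP90AA1, HSP90B1, HSPA1A, HSPA1B, HSPA2, HSPA8, HSPE1 and DNAJC10. Since deep genes have narrow intervals, the count was repeated over genes with at least 4000 counts in the 4 libraries. There it was 8 of 37 members (21.6%) against 8.48% of all such genes. That floor does not match depth, since HSP90AA1 had 201039 to 335597 counts per library. The part of depth in these shares was thus not tested. HSPA1A and HSPA1B, whose reads may have been split between the copies, count as 2 of the 8. Another 6 of the 60 members moved in opposite directions in the lines (against 3.47%), and this count was not matched for depth either. With scaling by total counts 9 members were lower in both lines (against 3.89% of all genes), with HSPA1A no longer among them and DNAJA2 and DNAJC21 added; the 1 higher in both was then DNAJB2 (against 4.96%), and 5 were opposite (against 3.41%). These counts were chosen after the data were seen and hold no replicate error.

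The shifts themselves were small. The ratio of circ0003553 to control was 0.881 in DU145 and 0.909 in PC3 for HSP90AA1, 0.811 and 0.883 for HSP90B1, 0.933 and 0.936 for HSPA8, and 0.890 and 0.864 for HSPE1. For HSPA1A it was 0.910 and 0.935, for HSPA1B 0.911 and 0.918, for HSPA2 0.825 and 0.866, and for DNAJC10, an ER disulfide reductase with a J domain, 0.915 and 0.860. None of these genes was called across lines (lowest adjusted p 0.528, for HSPA2, edgeR).

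**Figure D4:**
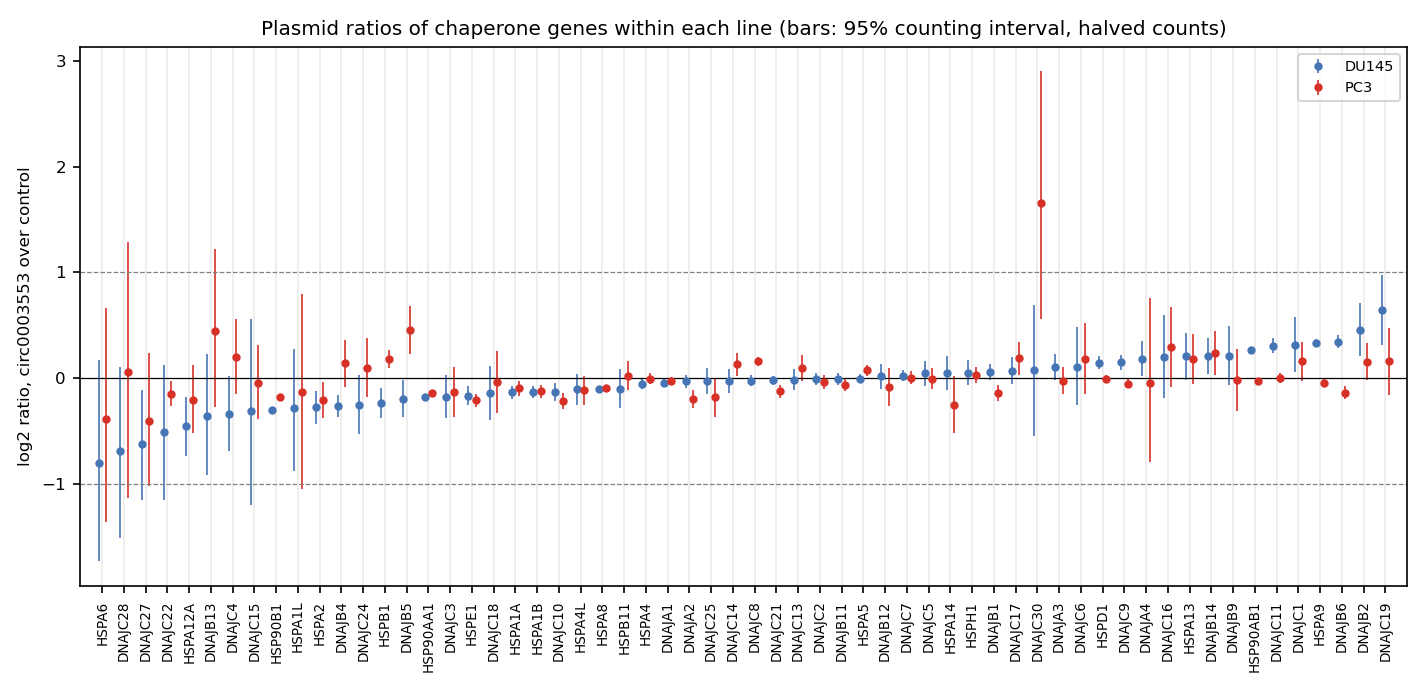
Log2 ratio of the circ0003553 to the control library within DU145 (blue) and PC3 (red) for the 60 genes with at least 50 counts in each line, ordered by the DU145 ratio, with 95% counting intervals from halved counts; dashed lines mark 2-fold. DNAJC30 in PC3 is the 1 point beyond 2-fold. HSP90AA1, HSP90B1 and HSPA8 sit slightly below 0 in both lines, while the also abundant HSP90AB1 and HSPA9 lie above 0 in DU145.

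Other genes of the chaperone network, read from fixed lists, were not called between plasmids either. None of 28 tested HSF factors and co-chaperones passed edgeR's test, beside 0.465% of all genes tested. Nor did any of 14 genes of the cytosolic chaperonin and prefoldin or of 13 organelle chaperones and other J proteins. At an unadjusted p under 0.05 there were 2, 1 and 1 in these lists. In lists this short, 0 calls are near the share of all genes. HSF1, the master regulator, had 860 and 1142 counts in the DU145 libraries against 1496 and 1985 in PC3, a fitted plasmid change of 0.32 (adjusted p = 0.409), and BAG3, itself an HSF1 target, had -0.05 (adjusted p = 0.94). Between the lines, 13 of the 28 were higher in PC3 and 6 lower (67.9% called, near the 66.0% of all genes tested), with a median of 0.21. The highest were PPID (1.91), a cyclophilin of the HSP90 complex, NUDC (1.83) and TOMM34 (1.48). The lowest were HIKESHI (-2.18), the nuclear import carrier of HSP70, FKBP5 (-1.94), an immunophilin of HSP90 and steroid receptors, and BAG2 (-1.03), an HSP70 exchange factor. HSF1 was higher in PC3 by 0.90 (adjusted p = 7.91e-06) and BAG3 by 0.43 (adjusted p = 0.00118, edgeR).

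The chaperonin and prefoldin genes split 4 higher, 4 lower and 6 not called between lines (57.1% called, beside 66.0% of all genes). PFDN5 (1.29), PFDN4 (0.77) and TCP1 (0.46) were highest in PC3 and CCT3 (-1.15), CCT5 (-0.54) and PFDN2 (-0.51) lowest, although the CCT proteins form 1 ring complex. Of the 13 on the organelle list, 6 were higher and 3 lower (69.2% called, near the 66.0% of all genes). GRPEL2 (1.85), an exchange factor of HSPA9, the mitochondrial protease LONP1 (1.19) and CLPB (0.76) led, and SIL1 (-2.03), the exchange factor of HSPA5, CLPX (-0.73) and GAK (-0.51) were lowest. SIL1 had 2090 and 1772 counts in the DU145 libraries against 392 and 487 in PC3.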

How the data were processed

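Gene-level read counts, as whole numbers, were deposited by the authors. A deposited RPKM stood beside each, equal to the count divided by exon length and library total. Per the submitters' processing notes, Trimmomatic 0.36, featureCounts, Subread 1.5.1, edgeR 3.12.1 and hg38 were used; for the aligner, the strand setting and molecular identifiers, nothing is given in the sources used here. Columns carrying NC were read as negative control, the others as circ0003553. Counts were fitted with edgeR 4.0.16 (R 4.3.3): TMM scaling, filterByExpr by plasmid (21731 genes), an additive model of line and plasmid, the quasi-likelihood test and Benjamini-Hochberg adjustment over all genes at 0.05. The SE is the fold change divided by the root of F. Inside each line, plasmid ratios on the log2 scale were taken from CPM after TMM, the prior count being 2; printed ratios and their exact intervals come from the counts with no prior. Genes were named by rule: the 6 highest and lowest plasmid and 8 highest and lowest line changes, the 10 highest RPKM, 2-fold ratios, untested members, and fixed lists. Members and lists were chosen with earlier results of these data known. DESeq2 1.42.0, limma 3.58.1, other scalings and filters were tried. Of 70 members, 39 share no exon base with another gene of the table.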

Additional observations from a re-analysis of the deposited data

Results flagged for a closer look

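For 6 genes the ratio of circ0003553 to control lay above 1 in one line and below 1 in the other, beyond the 95% counting interval of halved counts in each; over all genes with at least 50 counts in each line this held for 3.47%, and for 6 of the 60 members. Deep genes have narrow intervals, and these shares were not matched for depth. With 1 library per group the difference between the lines was not tested. HSP90AB1 had a ratio of 1.20 in DU145 and 0.98 in PC3, HSPA9 1.26 and 0.969, DNAJB6 1.27 and 0.909, and DNAJC9 1.11 and 0.965. In the other direction, HSPB1 had 0.849 in DU145 and 1.13 in PC3, and DNAJB5 0.873 and 1.37. With scaling by total counts, 5 genes were opposite: DNAJB5, DNAJB6 and HSPB1 were among them again, HSP90AB1, HSPA9 and DNAJC9 were not, and DNAJC8 and HSPA5 were added.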

How the results depend on the processing

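The count of 0 chaperone genes called between plasmids (0.465% of all genes called) was also 0 with DESeq2, limma-voom, legacy dispersions, DESeq2 size factors, total counts, halved counts and genes sharing no exon base, which called 0.12% to 0.534% of all genes. With no filter on low counts 0.0256% and with no cell line term 0 of all genes were called, so the 0 among the members says nothing there. At the shares of the other settings too, 0 was a likely count for so few genes. Its repeat over settings therefore says little about the members. The 41 members called between lines (63.1%, beside 66.0% of all genes) became 34 with DESeq2 (52.3%, beside 46.4%), 38 with no filter (54.3%, beside 37.5%) and 47 with total counts (72.3%, beside 65.4%), and 24 of 35 (68.6%, beside 65.2%) where genes sharing exon bases were left out, because fewer members remained. DNAJC22, DNAJC12, HSPB8, DNAJC15, HSPB1, HSPH1, DNAJA4 and DNAJB4 kept their line calls wherever they were tested. With a 1.5-fold limit 4 members were apart in DU145 in place of 0 (6.56%, against 9.20% of all genes), and with at least 200 counts 0 in PC3 in place of 1. The lower-in-both-lines count of 8 was 9 with total counts, and the opposite count of 6 was 5. DESeq2 lost the line calls of DNAJB5 (adjusted p = 0.0889), DNAJB7, DNAJC3, DNAJC28, DNAJC30, HSPA1L and HSPB6, and no filter that of DNAJB5 (0.0561). HSPB8 and DNAJC12 moved with DESeq2 in the plasmid comparison, to 0.94 and 0.99 on the log2 scale; the cause was not tested. No fit without 1 library was run in the additive model, since it leaves no residual degree of freedom; the ratios within each line stand in its place. The cell line term pairs the plasmids within each line, so the fit of the report is the paired one. Depth limits HSPA6, HSPA7, HSPB3, HSPB6, HSPB7, HSPB9, DNAJB7 and DNAJB8.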

Other observations

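The table holds 54 rows of processed copies (pseudogenes) of 12 of these genes, by symbol, and reads of a gene and its copy can be hard to separate. Their summed counts were small beside the parent gene: at most 4.05% for HSPD1 (PC3 control) and 1.14% for HSP90AA1 (PC3 control). In DU145 the 4 HSP90AA copies summed to 2530 counts with control and 1297 with circ0003553, 1.03% and 0.645% of HSP90AA1, and the 14 HSPA8 copies to 549 and 382. The share of the parent was lower with circ0003553 for 11 of 12 parents in DU145 and for 10 of 12 in PC3, where the HSP90AA copies had 3512 and 3428 counts. Several of these shares rest on few reads: the copies of HSPB1 and of DNAJC19 each had 6 counts with control and 2 with circ0003553 in DU145. Copies of other genes were not counted in this way, so the shift cannot be read as particular to chaperone genes. No test was run on these shares.

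The RefSeq windows of the members held a median of 24 CG pairs in 300 bases and 64.7% G and C, against 14 and 58.7% over all windows. HSPA7 had 4, 2, 4 and 3 counts (DU145 control and circ0003553, then PC3 in that order), and DNAJB8, a gene known from testis, 0, 4, 2 and 2.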
